A study of Homo sapiens with 9 samples.

Results

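The chromosomal passenger complex is the mitotic assembly that carries the kinase Aurora B, and its 4 subunit genes, AURKB, INCENP, BIRC5 and CDCA8, were followed here by their symbols among the 23369 genes of the series. All 4 were present and passed the filter on low values, together with 12642 genes in all. The RNA came from H1155, an established line of human large cell lung carcinoma, in 3 groups of 3 libraries each. Cells received 1 µM foretinib or 1 µM cabozantinib for 4 h, starting 24 h after plating, or DMSO as the vehicle, for which no exposure time is stated. Foretinib libraries carry the numbers 1, 2 and 4 in their titles, cabozantinib libraries 3, 4 and 5, and DMSO libraries 2, 4 and 5. All groups are the same line in the same serum-containing medium, so each value describes 1 line at 1 dose and 1 time.

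Aurora B phosphorylates centromere and kinetochore proteins so that wrongly attached microtubules are released, and later moves to the central spindle, where it acts in cytokinesis. INCENP is the scaffold: its C-terminal end binds and activates the kinase, while its N-terminal end joins survivin (the product of BIRC5) and borealin (the product of CDCA8), which place the complex on centromeric chromatin. Transcripts of the complex peak in G2 and mitosis in cycling cells, under repression and activation by complexes that read CHR elements and CCAAT boxes near the start site. Both compounds inhibit several kinases, including MET and KDR. They differ by a fluorine on the central ring and by a morpholinopropoxy group on the quinoline of foretinib, where cabozantinib has methoxy. AURKB is a reported target of foretinib, and the comparison of the compounds at the same dose asks whether the transcripts of the complex differ between them.

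INCENP and CDCA8 had the highest foretinib means relative to both other groups, and their promoters are shown for that reason. Each sequence is the 250 bases before the start site from RefSeq on build GRCh38.p14, + strand, with the CHR core TTTGAA and the CCAAT box, on either strand, in capitals. The INCENP window is chr11:62123761-62124010 and the CDCA8 window is chr1:37692266-37692515. These coordinates belong to that build and not to the one of the read counts.
INCENP: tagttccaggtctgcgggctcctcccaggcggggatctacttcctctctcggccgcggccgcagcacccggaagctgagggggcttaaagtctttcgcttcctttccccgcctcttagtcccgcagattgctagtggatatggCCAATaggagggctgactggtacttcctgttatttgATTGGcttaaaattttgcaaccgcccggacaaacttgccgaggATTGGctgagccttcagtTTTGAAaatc
CDCA8: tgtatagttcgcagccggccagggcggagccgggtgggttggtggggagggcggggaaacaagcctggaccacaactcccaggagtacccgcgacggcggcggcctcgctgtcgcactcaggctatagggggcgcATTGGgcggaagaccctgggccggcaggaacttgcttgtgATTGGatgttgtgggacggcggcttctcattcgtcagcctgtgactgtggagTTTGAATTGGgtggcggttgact
Both windows held 1 TTTGAA on the + strand, 10 bases before the start in INCENP and 23 in CDCA8, and 3 CCAAT boxes. The CHR core of CDCA8 shares 1 base with a CCAAT box read on the other strand. Among 35116 RefSeq windows of this length 13.3% held TTTGAA or its reverse complement and 32.0% held CCAAT or its reverse complement. A match of letters is no measure of binding. The 2 AURKB windows of the table begin at start sites inside the annotated gene and are not printed. Each held 0 TTTGAA and 1 CCAAT box on either strand, and BIRC5 had no entry.

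Values are normalised read counts, each gene's reads divided by 1 factor per library, and a value with an error is a mean ± SD over n = 3 libraries. Gene-assigned reads per library ran from 26996023 to 34062153. Of the tested genes, 16.3% to 21.0% were at 0 in a foretinib library, 4.41% to 5.48% in a cabozantinib library and 5.30% to 10.9% in a DMSO library, so the foretinib libraries detected fewer genes. Neuroendocrine markers were present, 8 of 9 above 0 in every library, with summed levels of 66672 to 70001 in foretinib, 65102 to 69983 in cabozantinib and 55812 to 62023 in DMSO. Single markers went both ways. Mean DDC was 277 in foretinib and 318 in cabozantinib, against 882 in DMSO. INSM1 in foretinib and SYP in cabozantinib also had means below DMSO, and the other means were above it. Among the leukocyte markers, PTPRC and CD3E were listed at 0 in all libraries, CD68 was above 0 in all 9 and LYZ in 6, and the list summed to 9.87 to 755 in foretinib, 174 to 300 in cabozantinib and 4.89 to 228 in DMSO. Of 4 endothelial markers, CDH5, VWF and KDR were at 0 throughout and PECAM1 was above 0 in 3 libraries. KRT8 and KRT18, among 5 epithelial markers, were above 0 in all 9 libraries, EPCAM in 7 and CDH1 in 5, with KRT19 at 0 throughout. The epithelial sums were 2603 to 5109 in foretinib, 4271 to 6674 in cabozantinib and 3962 to 6554 in DMSO. Of 5 fibroblast markers, COL3A1 and DCN were at 0 throughout and COL1A2 was above 0 in all 9 libraries, with sums of 869 to 1194 in foretinib, 767 to 1049 in cabozantinib and 453 to 1345 in DMSO. The proliferation markers MKI67, PCNA, TOP2A and CCNB1 summed to 92789 to 122648 in foretinib, 88493 to 90442 in cabozantinib and 86251 to 97286 in DMSO.

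INCENP, the scaffold, had 9346, 11142 and 10758 normalised counts in foretinib replicates 1, 2 and 4. It had 8088, 8427 and 8713 in cabozantinib replicates 3, 4 and 5, and 5976, 7570 and 7010 in DMSO replicates 2, 4 and 5. The 3 groups did not overlap: each foretinib library lay above each cabozantinib library, and each of these above each DMSO library. The means were 10415 ± 946 in foretinib, 8409 ± 313 in cabozantinib and 6852 ± 808 in DMSO. Foretinib was thus at 1.52 times the DMSO mean and 1.24 times the cabozantinib mean, and cabozantinib at 1.23 times the DMSO mean. In bulk RNA, more cells that express a gene and more of its RNA per cell cannot be told apart. Summed proliferation markers, though not TOP2A or CCNB1 alone, were also higher without overlap in foretinib than in cabozantinib. Summed neuroendocrine markers, though not each marker, were higher without overlap in both treated groups than in DMSO, as given above. The part of these marker sums in the INCENP values was not tested.

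No comparison of INCENP passed the test over all genes. For foretinib against DMSO the log2 fold change was 0.61 (SE 0.18, 95% interval 0.22 to 1.00), with limma adjusted p = 0.370 and an unadjusted p of 0.00506. Cabozantinib against DMSO gave 0.30 (95% interval -0.09 to 0.69, limma adjusted p = 1.000), and foretinib against cabozantinib gave 0.31 (95% interval -0.09 to 0.70, limma adjusted p = 0.539). Limma called 0% of the tested genes in each of the 3 comparisons, and edgeR on whole reads called 0 as well. In that order, 1146, 166 and 1252 genes, or 9.07%, 1.31% and 9.90%, had an unadjusted limma p under 0.05. The second share lies below that expected where no gene differs. With only the 6 libraries compared in the model the counts were 621, 516 and 933. DESeq2 on whole reads did call INCENP in foretinib against DMSO (0.60, adjusted p = 0.0104), the 1 member call it made; it called 5.14% of genes in that comparison, 0.372% in cabozantinib against DMSO and 4.89% in foretinib against cabozantinib. Over all alternatives the adjusted p of INCENP for foretinib against DMSO ran from that value to 0.744.

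**Figure D1:**
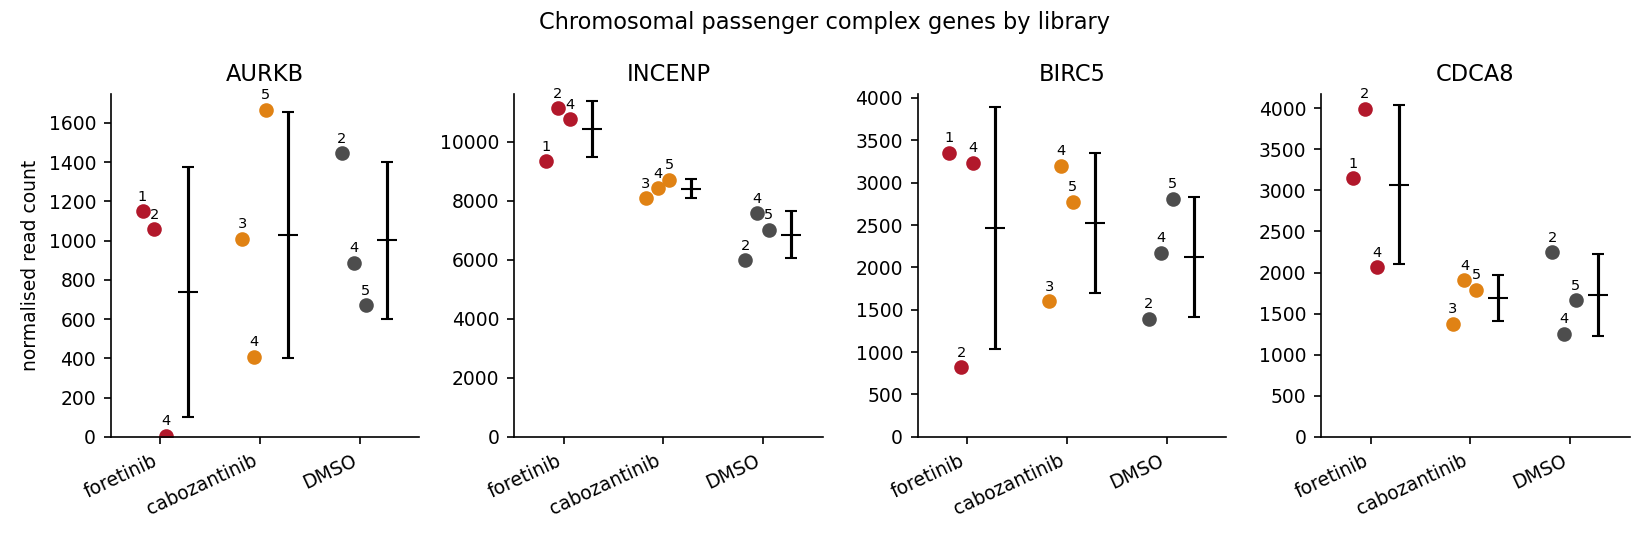
Normalised read counts of AURKB, INCENP, BIRC5 and CDCA8 in each library, as dots with the replicate number above, and the group mean ± SD as a bar beside them (n = 3 libraries per group). INCENP runs from 9346 to 11142 in foretinib, above the other groups, and AURKB is near 0 in foretinib replicate 4 alone.

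CDCA8, which encodes borealin, had 3150, 3997 and 2065 normalised counts in foretinib replicates 1, 2 and 4. Cabozantinib replicates 3, 4 and 5 had 1379, 1909 and 1789, and DMSO replicates 2, 4 and 5 had 2250, 1257 and 1662. Every foretinib library was above every cabozantinib library, but foretinib replicate 4 was below DMSO replicate 2. The means were 3071 ± 968 in foretinib, 1692 ± 278 in cabozantinib and 1723 ± 499 in DMSO, so that foretinib stood at 1.78 times the DMSO mean and 1.81 times the cabozantinib mean. The log2 fold changes were 0.82 against DMSO (95% interval -0.01 to 1.66, limma adjusted p = 0.531) and 0.82 against cabozantinib (95% interval -0.01 to 1.66, limma adjusted p = 0.504). Cabozantinib against DMSO was at 0.00, with a 95% interval of -0.83 to 0.83.

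BIRC5, which encodes survivin, overlapped between the groups in every comparison. It had 3352, 822 and 3236 normalised counts in foretinib replicates 1, 2 and 4, against 1600, 3198 and 2774 in cabozantinib replicates 3, 4 and 5, and 1392, 2171 and 2810 in DMSO replicates 2, 4 and 5. Foretinib replicate 2 was the lowest library and foretinib replicate 1 the highest of the 9. The log2 fold change was 0.02 for foretinib against DMSO (95% interval -1.12 to 1.16, limma adjusted p = 0.994) and 0.69 without foretinib replicate 2. It was 0.25 for cabozantinib against DMSO (95% interval -0.89 to 1.39) and -0.22 for foretinib against cabozantinib (95% interval -1.36 to 0.92). The last of these was 0.44 without foretinib replicate 2.

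AURKB, the kinase itself, had the largest coefficient of variation of the 4 members in each group. Foretinib replicates 1, 2 and 4 had 1150, 1057 and 6.27 normalised counts, the last being 6 reads. Cabozantinib replicates 3, 4 and 5 had 1010, 409 and 1666, and DMSO replicates 2, 4 and 5 had 1446, 888 and 671. Foretinib replicates 1 and 2 lay inside the DMSO range, and 1 foretinib library was far below every other. The means were 738 ± 635 in foretinib, 1028 ± 629 in cabozantinib and 1002 ± 400 in DMSO.

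The sign of the AURKB fold change in the foretinib comparisons rested on that library. For foretinib against DMSO it was -2.20 (95% interval -5.56 to 1.16, limma adjusted p = 0.604), and 0.21 without foretinib replicate 4. Against cabozantinib it was -2.09 (95% interval -5.45 to 1.26, limma adjusted p = 0.613), and 0.32 without the same library. Cabozantinib against DMSO gave -0.11, with a 95% interval of -3.47 to 3.25. This interval too uses a spread pooled over all 9 libraries, foretinib replicate 4 included. On whole reads the value for foretinib against DMSO was -0.46 by edgeR and -0.44 by DESeq2. A difference in AURKB between the compounds was therefore not detectable with these libraries.

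**Figure D2:**
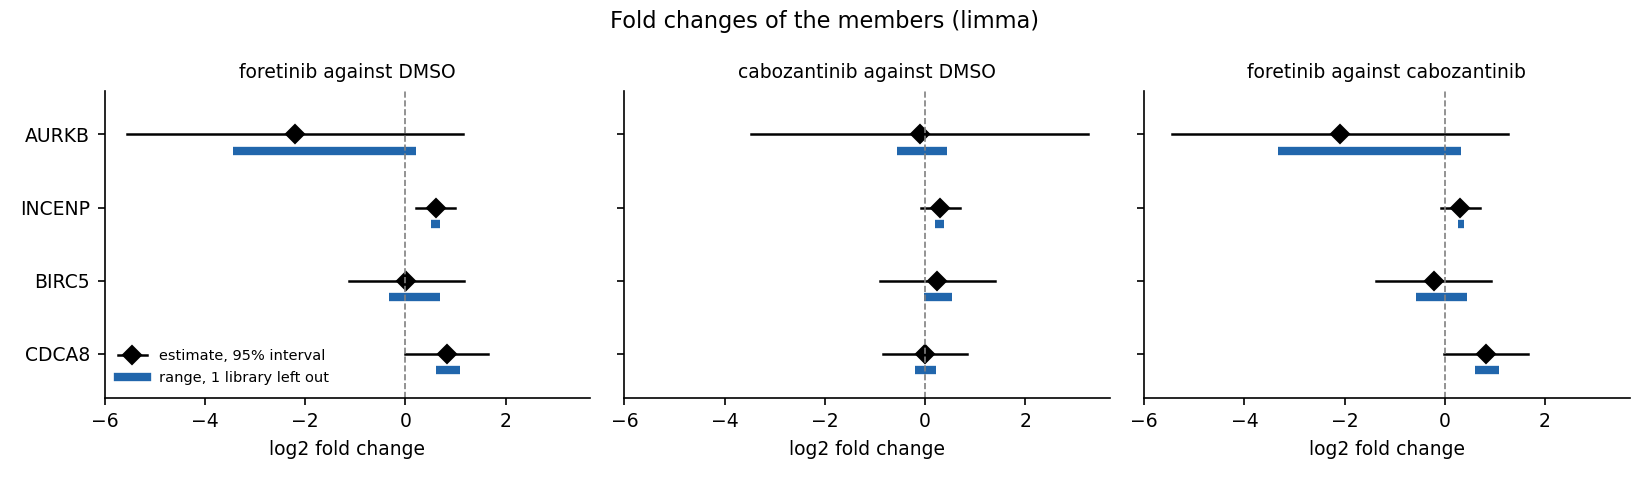
Log2 fold changes of the 4 members in the 3 comparisons: diamonds with thin lines are the limma estimate and 95% interval, and thick bars are the range of estimates when each of the 9 libraries is left out in turn. The AURKB bar for foretinib against DMSO runs from -3.44 to 0.21, and the INCENP bar from 0.51 to 0.68.

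Low values of this kind were common in foretinib libraries for genes at the level of AURKB. Of 4636 tested genes with a DMSO mean of 500 to 2000, 10.5%, 12.9% and 15.7% were below 10% of that mean in foretinib replicates 1, 2 and 4. In cabozantinib libraries the share was 0.475% to 1.04% and in DMSO libraries 0.108% to 1.04%. Its part in the AURKB value of foretinib replicate 4 was not tested. The coefficient of variation of AURKB was 86.1% in foretinib, 61.2% in cabozantinib and 39.96% in DMSO, beside medians of 67.5%, 31.2% and 36.3% over 4667 genes of its level. INCENP lay below the median gene of its level in each group, at 9.08% in foretinib, 3.72% in cabozantinib and 11.8% in DMSO, beside medians of 24.2%, 12.03% and 15.4% over 828 genes.

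**Figure D3:**
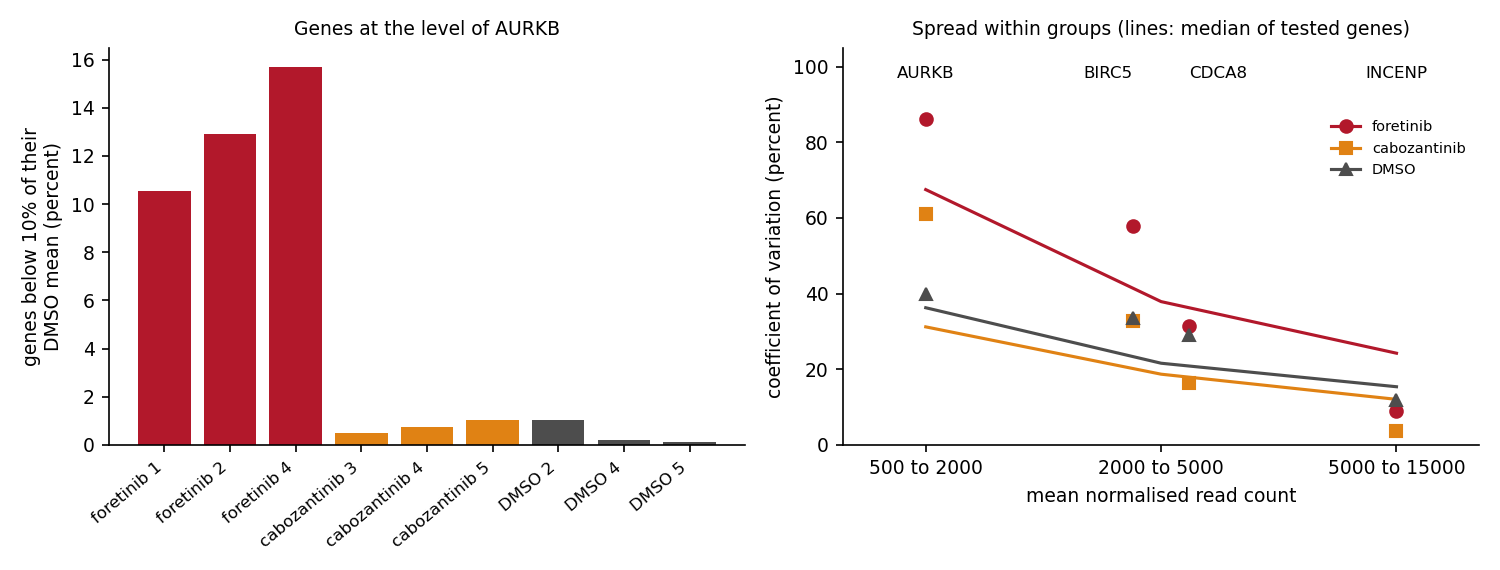
Left, percent of 4636 genes with a DMSO mean of 500 to 2000 that lie below 10% of that mean in each library. Right, the coefficient of variation of each member within each group (points) over the median of tested genes of the same mean level (lines); INCENP lies below all 3 lines and AURKB above them.

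The fold changes were read against the rest of the table, because the tested genes as a whole had medians of -0.34 (foretinib over DMSO), 0.04 (cabozantinib over DMSO) and -0.44 (foretinib over cabozantinib) in log2 fold change. Quantile normalisation moved these medians to -0.04, 0.01 and -0.05. Relative to genes with a mean within a factor of 2 of their own, foretinib against DMSO was at 0.59 for INCENP, 0.87 for CDCA8, 0.06 for BIRC5 and -1.85 for AURKB. Under quantile normalisation itself INCENP was at 0.51, CDCA8 at 0.73, BIRC5 at -0.06 and AURKB at -0.92. The direction of BIRC5 thus turns with the scaling, and those of the other members do not.

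By group separation, 1 of the 4 members, INCENP, was higher without overlap in foretinib than in DMSO, where 3.99% of tested genes were, and 0 were lower, where 7.69% were. In cabozantinib against DMSO 1 member, again INCENP, was higher without overlap beside 5.18% of tested genes, and 0 were lower beside 4.71%. In foretinib against cabozantinib 2 members, INCENP and CDCA8, were higher without overlap beside 4.49%, and 0 were lower beside 9.7%. The median log2 fold change of the 4 members was 0.32, 0.12 and 0.04 in these comparisons. The comparisons with DMSO share its libraries, and the third shares the treated ones.

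The summed level of the 4 members was 16998, 17018 and 16065 in foretinib replicates 1, 2 and 4. The sums were 12077, 13943 and 14943 in cabozantinib replicates 3, 4 and 5, and 11065, 11886 and 12153 in DMSO replicates 2, 4 and 5. All foretinib sums lay above all others, the mean being 1.43 times that of DMSO and 1.22 times that of cabozantinib, while the cabozantinib and DMSO ranges overlapped. Not corrected for gene length, INCENP reads made up 62.5% ± 6.53 of the sum in foretinib, 61.9% ± 4.51 in cabozantinib and 58.5% ± 4.89 in DMSO. Without INCENP the sums were 5307 to 7653 in foretinib, 3989 to 6230 in cabozantinib and 4315 to 5143 in DMSO. The foretinib and DMSO sums still did not overlap, by a small margin, and the foretinib and cabozantinib sums did. No test was made on sums.

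Per kilobase of merged exons in GENCODE 29, an annotation other than the one used for counting, INCENP was also the highest member. Its level per kilobase in DMSO was 1729 ± 204, against 761 ± 304 for AURKB, 698 ± 202 for CDCA8 and 667 ± 223 for BIRC5, and these last 3 overlapped. In foretinib INCENP was at 2627 ± 239 per kilobase, CDCA8 at 1244 ± 392, BIRC5 at 775 ± 448 and AURKB at 561 ± 483. In cabozantinib the order below INCENP (2121 ± 78.9 per kilobase) was BIRC5 at 792 ± 260, AURKB at 781 ± 478 and CDCA8 at 685 ± 113, which overlapped. On this scale AURKB made up 15.7%, 14.6% and 0.104% of the 4 members in foretinib replicates 1, 2 and 4, against 7.37% to 25.03% in cabozantinib libraries and 13.3% to 27.8% in DMSO libraries.

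**Figure D4:**
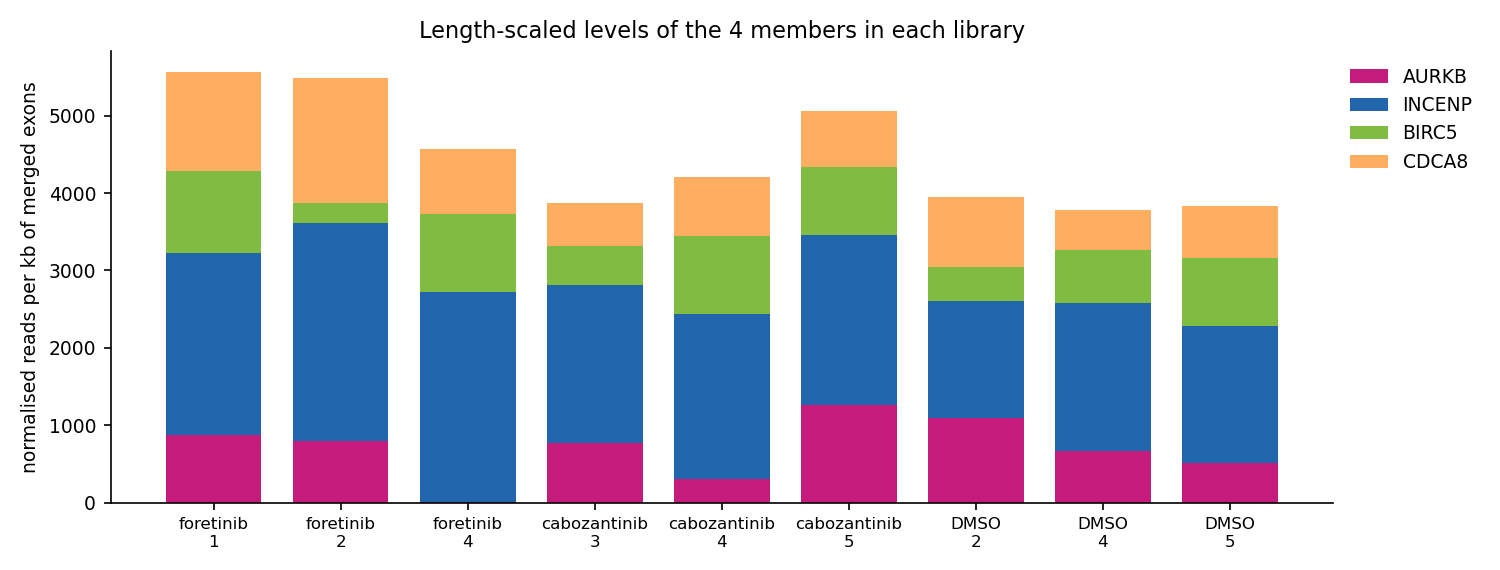
Normalised reads per kilobase of merged exons of AURKB, INCENP, BIRC5 and CDCA8, stacked for each of the 9 libraries. INCENP is the largest part in each library, AURKB is near 0 in foretinib replicate 4, and BIRC5 is smallest in foretinib replicate 2.

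Likeness of profiles was taken as the root mean square difference of log2 values, each gene centred on its own mean, over the 9 libraries, and it is a description of profiles that share libraries. This measure grows with each gene's own variation, so a distance from AURKB, whose own root mean square was 2.29 log2 units, says little about whether another gene moved with it. The closest pair of members was INCENP and CDCA8, at 0.43 log2 units, with INCENP ranked 431 among tested genes by likeness to CDCA8 and CDCA8 ranked 1693 by likeness to INCENP. BIRC5 was at 0.71 from INCENP and 0.96 from CDCA8. The own root mean square, which is the distance to a flat profile, was 0.27 for INCENP, 0.50 for CDCA8 and 0.66 for BIRC5. INCENP was thus little closer to CDCA8 than a flat profile, and CDCA8 was further from INCENP than a flat profile. Both distances from BIRC5 were above its own value. The genes nearest to INCENP were SRP9 (0.14), which encodes a subunit of the signal recognition particle, ZNF37BP (0.15) and CHD4 (0.16), the remodelling ATPase of the NuRD complex. Among the nearest to CDCA8 were CERCAM (0.19) and HIST1H2AM (0.21), a histone H2A gene whose reads near-identical copies may share. Nearest to BIRC5 were USP8 (0.18), ZMAT3 (0.22) and ANO6 (0.28), and nearest to AURKB were WDR85 (0.33), CCDC125 (0.44) and CMTM7 (0.53), each of which was also lowest in foretinib replicate 4.

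Of the related kinases, AURKC, which can replace Aurora B in meiosis, was listed at 0 in all 9 libraries. AURKA, the spindle pole kinase, had 1565, 5035 and 582 normalised counts in foretinib replicates 1, 2 and 4, against 3335, 2657 and 4035 in cabozantinib replicates 3, 4 and 5, and 2827, 2492 and 2733 in DMSO replicates 2, 4 and 5. Like AURKB it was lowest in foretinib replicate 4, but foretinib replicate 2 was its highest library. Foretinib against cabozantinib was at -0.99 (95% interval -2.23 to 0.25, limma adjusted p = 0.537). Its named pseudogenes AURKAP1 and AURKAP2 may have taken reads, whereas none of the 4 members has a named pseudogene or an overlapping gene in GENCODE 29. Among 6 tested genes of Aurora relatives and Aurora A partners 0 passed in either direction in any comparison, beside 0% of all tested genes. BORA, the Aurora A activator, was listed at 0 in foretinib replicate 2 and had 107 and 603 normalised counts in foretinib replicates 1 and 4, against 193, 368 and 529 in DMSO replicates 2, 4 and 5. TACC3, a spindle protein and Aurora A substrate, was at 0.44 in foretinib against DMSO (95% interval -0.25 to 1.14). TPX2, which activates Aurora A on the spindle, was at -0.17 in cabozantinib against DMSO (95% interval -0.58 to 0.24).

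The proteins that bring the complex to centromeres and switch it on held no member that passed, 0 of 9 in either direction in each comparison. The share over all tested genes was 0% as well. The list includes the kinases HASPIN and BUB1, whose histone marks survivin and the shugoshins read. PLK1, the mitotic kinase that docks on the complex, was at 2078 ± 67.1 in foretinib, 1934 ± 759 in cabozantinib and 3126 ± 455 in DMSO. For PLK1, as for 7.69% of tested genes, all foretinib libraries were below all DMSO libraries, the opposite direction to INCENP. The PLK1 log2 fold change was -0.58 (95% interval -1.34 to 0.18, limma adjusted p = 0.552). Cabozantinib against DMSO was at -0.75 (95% interval -1.51 to 0.01), with cabozantinib replicate 3 inside the DMSO range. CCNB1, the activating cyclin of CDK1, was at 0.41 (limma adjusted p = 0.565). SGOL2, a centromere protector, had the smallest p of the list in foretinib against cabozantinib, at 0.68 (95% interval -0.25 to 1.60).

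Among 15 substrates and anaphase partners of Aurora B 0 passed in any comparison, beside 0% of all tested genes. The genes of this list with the smallest p went in opposite directions. NCAPH, a condensin subunit, had 5287, 4838 and 4275 normalised counts in foretinib replicates 1, 2 and 4, against 8117, 6273 and 8389 in DMSO replicates 2, 4 and 5, with 5213 to 5850 in cabozantinib. It was lower without overlap in both treated groups than in DMSO, at -0.66 for foretinib (95% interval -1.11 to -0.20, limma adjusted p = 0.406) and -0.43 for cabozantinib (95% interval -0.89 to 0.03). KIF4A, the chromokinesin of the central spindle, had 6534, 6770 and 7271 in foretinib replicates 1, 2 and 4, against 4809, 4983 and 4497 in DMSO replicates 2, 4 and 5, with 5161 to 7181 in cabozantinib. KIF4A was higher without overlap in both treated groups than in DMSO, at 0.53 for foretinib (95% interval 0.07 to 0.99, limma adjusted p = 0.523). NCAPH and KIF4A were named for their small p in these data, which favours such separation. Over all tested genes, foretinib was lower than DMSO without overlap in 7.69% and higher in 3.99%. Cabozantinib was lower than DMSO in 4.71% and higher in 5.18%. TOP2A, the mitotic topoisomerase, was at 0.31 in foretinib against cabozantinib (95% interval -0.06 to 0.68).

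Phosphatases that oppose Aurora B and factors that remove it from chromosomes, 13 tested, had 0 that passed in either direction. Of all tested genes 0% passed. KLHL9, an adaptor of the CUL3 ligase that takes Aurora B off chromosomes, had 1146, 32.7 and 64.8 normalised counts in foretinib replicates 1, 2 and 4, against 1434, 1350 and 788 in DMSO replicates 2, 4 and 5. Only 2 of its 3 foretinib libraries were low, and the interval was wide (-3.08, 95% interval -5.58 to -0.58, limma adjusted p = 0.494). Against cabozantinib, with 886 to 1463, it was at -2.94 (95% interval -5.44 to -0.44, limma adjusted p = 0.449). PPP1CC, a catalytic subunit of protein phosphatase 1, was at 0.53 in cabozantinib against DMSO (95% interval -0.02 to 1.08), with cabozantinib libraries at 4023 to 5495 and DMSO libraries at 2866 to 3640. USP9X, which deubiquitinates survivin, was at 0.43 in foretinib against DMSO (limma adjusted p = 0.532).

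Relatives of survivin and its partners gave 0 of 6 tested genes past the threshold, beside 0% of all tested genes. BIRC3, BIRC7 and BIRC8 had not reached the filter. XPO1, the export receptor that binds survivin, had 10452, 7632 and 8862 normalised counts in foretinib replicates 1, 2 and 4, against 11380, 12172 and 11338 in DMSO replicates 2, 4 and 5. The foretinib libraries were the lower ones without overlap, as for 7.69% of tested genes (-0.38, 95% interval -0.77 to 0.00, limma adjusted p = 0.531). BIRC2, another inhibitor of apoptosis, was at 0.79 with a 95% interval of -0.74 to 2.33. NAIP, a sensor of bacterial proteins in the same family, was at 1.10 in cabozantinib against DMSO, where DMSO replicate 2 had 31.6 normalised counts and the other DMSO libraries 684 and 719.

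Regulators of G2 and mitotic transcription, 11 tested, likewise had 0 that passed in any comparison, beside 0% of all tested genes. FOXM1, the activator that binds CHR promoters together with MYBL2, had 8113, 7847 and 1920 normalised counts in foretinib replicates 1, 2 and 4, against 3342, 3783 and 2175 in DMSO replicates 2, 4 and 5. It was high in foretinib replicates 1 and 2 and lowest in foretinib replicate 4 (0.72, 95% interval -0.30 to 1.73, limma adjusted p = 0.578). RBL1, a pocket protein, was listed at 0 in foretinib replicates 2 and 4 and had 856 in foretinib replicate 1, against 405, 367 and 729 in DMSO replicates 2, 4 and 5 (-5.65, 95% interval -11.31 to 0.01). Cabozantinib libraries had 118 to 215 for RBL1, lower without overlap than DMSO, as for 4.71% of tested genes (-1.48, 95% interval -7.14 to 4.18). That interval uses a spread pooled over the 3 groups, with the foretinib values at 0 included. RBL2, the pocket protein of quiescent cells, was at 1.03 in foretinib against cabozantinib (95% interval -0.17 to 2.23) and at -0.44 in cabozantinib against DMSO (95% interval -1.65 to 0.76).

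Set beside each other, the list medians for foretinib against DMSO were 0.32 for the complex, 0.10 for recruitment and activation, 0.10 for substrates, 0.00 for phosphatases and removal, -0.16 for Aurora relatives, 0.20 for the survivin group and 0.15 for transcription regulators, beside -0.34 for all tested genes. Genes of like level are the closer comparison: their medians, taken for each list gene, had a median between -0.08 and 0.00 in every list. Relative to genes of like level, the list medians were 0.33 for the complex, 0.15 for recruitment, 0.09 for substrates, 0.03 for phosphatases and removal, -0.16 for Aurora relatives, 0.28 for the survivin group and 0.16 for transcription regulators. For cabozantinib against DMSO the list medians themselves ran from -0.12 to 0.18, beside 0.04 for all tested genes. Relative to genes of like level, the range was -0.13 to 0.17. In foretinib against cabozantinib the list medians themselves ran from -0.10 to 0.19, beside -0.44 for all tested genes. Relative to genes of like level, the range there was -0.10 to 0.27.

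**Figure D5:**
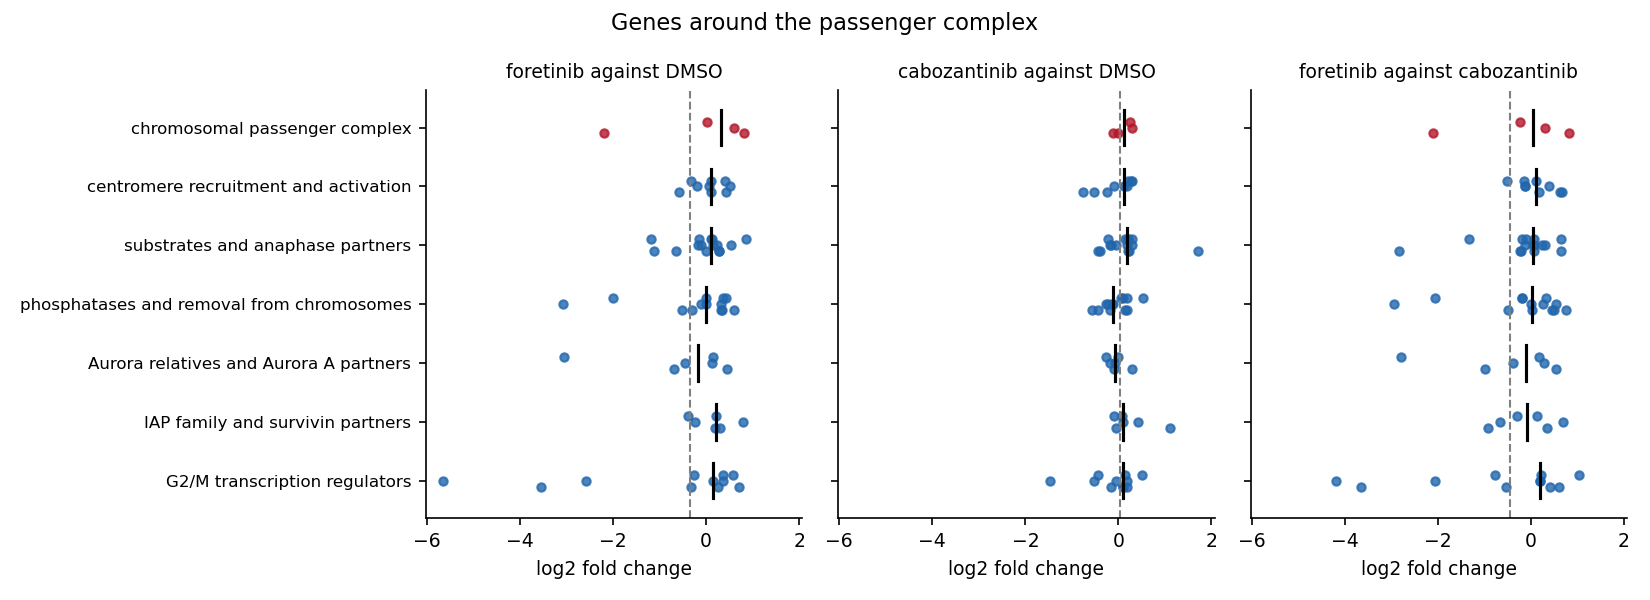
Log2 fold change of each tested gene of the passenger complex (red) and of 6 lists of related genes (blue) in the 3 comparisons, with a black tick at each list median and a dashed line at the median of all tested genes. The complex median for foretinib against DMSO is 0.32, and each list spreads to both sides of 0.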

How the data were processed

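The authors deposited a signal value per gene and library; from the values themselves it is the read count divided by 1 factor per library. Tools named in the submitters' processing notes are TopHat2 2.0.13, Cufflinks 2.2.1, HTSeq and DESeq2, with build hs37d5. Strand setting and annotation were not given in sources used here, so antisense reads cannot be told apart. Dividing each column by its smallest step gave whole reads for 100% of values (relative tolerance 1e-06), on which the alternative count tests ran.

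Genes reaching 10 normalised counts in 3 or more libraries were tested as log2(value + 1) with limma 3.58.1 (trend) in R 4.3.3. The 9 libraries shared 1 model, so the interval of each comparison rests on a spread pooled over the 3 groups. Calls needed a Benjamini-Hochberg adjusted p below 0.05 over all tested genes. Adding 1 shrinks the fold changes of low genes, but a single library near 0 can enlarge them on the log scale. AURKB in foretinib against DMSO was at -2.20, and at -1.82 and -0.98 with pseudocounts of 10 and 100. Its ratio of means there was 0.74. Alternatives were edgeR 4.0.16, DESeq2 1.42.0, other pseudocounts, filters, scalings and library sets. Simulated data with a low spread were run through limma, edgeR and DESeq2, and data with the estimated spread through limma and edgeR only. Replicates are called biological triplicates in the labels. The members and lists were chosen with earlier results of these data known. Named genes were the members, AURKA and AURKC, in each list the 2 genes with the smallest p for foretinib against DMSO and 1 for each other comparison, and the 3 nearest profiles per member; 1 of these is not reported here.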

Additional observations from a re-analysis of the deposited data

How the results depend on the processing

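Each of the 12 member results was recomputed under 19 alternatives, 6 of which leave its fold change as it is by construction. Of the 156 values that could move, 133 kept their direction and their side of the threshold and 22 turned. INCENP was called by DESeq2 in foretinib against DMSO (0.60) and under no other alternative. The count of called genes, 0 in each comparison, became 650, 47 and 618 with DESeq2 for foretinib against DMSO, cabozantinib against DMSO and foretinib against cabozantinib, and 1 with quantile normalisation in the first; the cause was not tested. Directions turned for BIRC5 in foretinib against DMSO with quantile normalisation (-0.060), TMM scaling (-0.00739) and the replicate block (-0.12). They turned for AURKB in cabozantinib against DMSO with edgeR (0.054), DESeq2 (0.041) and the replicate block (0.88), and for CDCA8 there with a pseudocount of 100 (-0.000448), edgeR (-0.016) and DESeq2 (-0.023); the causes were not tested.

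Leaving out each library in turn gave log2 fold changes of -3.44 to 0.21 for AURKB and -0.32 to 0.69 for BIRC5 in foretinib against DMSO, and -3.33 to 0.32 and -0.57 to 0.44 in foretinib against cabozantinib. In cabozantinib against DMSO the ranges were -0.57 to 0.45 for AURKB, -0.029 to 0.55 for BIRC5 and -0.21 to 0.21 for CDCA8. The direction turned without foretinib replicate 4 for AURKB in both foretinib comparisons, and for BIRC5 without foretinib replicate 1, foretinib replicate 4 or DMSO replicate 2 against DMSO and without foretinib replicate 2 against cabozantinib. In cabozantinib against DMSO it turned without cabozantinib replicate 4 or DMSO replicate 2 for AURKB, without DMSO replicate 2 for BIRC5, and without cabozantinib replicates 4 or 5 or DMSO replicates 4 or 5 for CDCA8. INCENP kept its direction in all of these fits. The summed level of the members with quantile normalisation was 1.34 times that in DMSO and 1.15 times that in cabozantinib, for foretinib; the second ratio was 1.16 to 1.28 without each library. Deviations of same-numbered libraries from their group means had correlations of -0.002 to 0.029 across genes. Differently numbered libraries were not compared, so these values do not settle whether the numbers pair the samples. With the replicate block, which leaves 2 residual degrees of freedom, foretinib against DMSO was at 0.71 for INCENP (limma adjusted p = 0.421). That comparison was at 0.70 for CDCA8 (limma adjusted p = 0.522) and -3.58 for AURKB (limma adjusted p = 0.446). Foretinib against cabozantinib was then at 0.43 for INCENP (limma adjusted p = 0.624), 0.32 for CDCA8 (limma adjusted p = 0.851), -0.24 for BIRC5 and -4.46 for AURKB (limma adjusted p = 0.562). Cabozantinib against DMSO was at 0.28 for INCENP, 0.11 for BIRC5 and 0.39 for CDCA8.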
